A study of Homo sapiens with 9 samples.

Results

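The comparison of HL13 with DMSO was followed across the whole genome in cells of MM.1S, a human line of malignant plasma cells established from a multiple myeloma. The groups were 3 arrays of cells kept with 5 nM HL13 for 24 h and 3 arrays of cells kept with the solvent DMSO for 24 h, so that 6 of the 9 arrays of the series were compared. The other 3 arrays came from cells kept with 5 nM LBH589 (panobinostat, an inhibitor of histone deacetylases) for 24 h, and their levels are given beside the switched genes only. Both compounds were compared with the same DMSO arrays. All cells were of the same line, grown in serum-containing medium, and both compounds were dissolved in DMSO. HL13 is known from the labels by its code alone. The labels number the arrays of a group as biological replicates without naming the cultures, so the p values refer to the spread among these arrays alone, and part of that spread may be technical.

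Histone deacetylases remove acetyl groups from histones and from other proteins, and inhibitors of these enzymes are known to raise some genes that a cell type keeps silent and to lower others that it transcribes strongly. Plasma cells are antibody-secreting cells whose programme rests on transcription factors such as IRF4, PRDM1 and XBP1 and on a large secretory apparatus. The comparison asks which genes of that programme, and which genes outside it, differed after 24 h with HL13. Each level below is a log2 intensity of 1 gene on 1 array. Levels of different genes come from different probes and do not give their relative amounts of RNA. A difference of 1 on this scale is 2-fold, standard errors follow ± and come from limma (3 arrays in each group), and p values were adjusted by the Benjamini-Hochberg method over all 15842 genes tested.

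Of the 15842 genes, 9221 (58.2%) were called at an adjusted p under 0.05, 4672 higher (29.5%) and 4549 lower (28.7%). Most of these differences were small, with a median size over all genes of 0.17. At least 2-fold differences were found for 428 genes that were higher (2.70%) and 456 that were lower (2.88%). At 4-fold, 64 genes were higher and 49 lower, and at 8-fold 11 were higher and 6 lower. The mean correlation of an array with the others of its group was 0.9975 to 0.9982 in HL13 and DMSO. Among 16103 transcript clusters without a gene symbol, 2.46% were at least 2-fold higher and 1.64% at least 2-fold lower.

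The labelled cell type was checked on 10 plasma cell markers, tested in the fit with no filter so that dim markers of other cells entered it too. All 10 were bright on the DMSO arrays, meaning above the upper quartile of all probe sets, and 9 were bright on the HL13 arrays. Their mean level was 8.86 to 8.89 with HL13 and 10.30 to 10.35 with DMSO, and 9 of the 10 were called lower, 7 of them by at least 2-fold. TNFRSF17, which encodes the receptor BCMA, left the bright range, with 5.55, 5.58 and 5.56 in HL13, against 10.03, 10.10 and 10.03 in DMSO. Of the transcription factors that hold the plasma cell state, PRDM1 averaged 8.68 in HL13 and 10.60 in DMSO (-1.92), XBP1 9.03 and 10.71 (-1.68), and IRF4 10.99 and 11.11 (-0.12). POU2AF1, a B lineage coactivator (-2.34), SLAMF7 (-2.52), SDC1, the surface proteoglycan CD138 (-1.49), and MZB1, a chaperone of antibody assembly (-1.19), fell too. JCHAIN, the joining chain of secreted antibodies, fell little, with 12.34 in HL13 and 12.54 in DMSO on average. CD38, a surface enzyme, was the 1 marker that rose, with 9.68 in HL13 and 8.24 in DMSO.

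Markers of other lineages were mostly dim. The mean level of 5 T and NK cell markers was 5.11 to 5.19 with HL13 and 5.14 to 5.18 with DMSO, that of 5 monocyte markers 4.98 to 5.05 with HL13 and 4.98 to 5.01 with DMSO, and that of 4 B cell markers 5.64 to 5.67 with HL13 and 5.72 to 5.74 with DMSO, with CD79B lower (-0.49). MS4A1, CD3D, CD14 and LYZ were silent on all 6 arrays. The 3 erythroid markers gave 4.73 to 4.79 with HL13 and 4.97 to 5.03 with DMSO, HBB being lower (-0.46). The 4 fibroblast and endothelial markers gave 6.15 to 6.21 with HL13 and 5.86 to 5.996 with DMSO, where PECAM1 (0.75) and COL1A1 (0.30) rose and COL1A1 reached the bright range. The 5 epithelial markers gave 5.81 to 5.86 with HL13 and 5.65 to 5.72 with DMSO, EPCAM rising by 0.60. The 5 neuron markers averaged 6.19 to 6.22 with HL13 and 5.42 to 5.43 with DMSO: SYT1 (1.07), NEFL (1.26) and STMN2 (1.55) rose, and SNAP25 and RBFOX3 did not pass the test. The part of other cell types in the results was not tested.

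**Figure D1:**
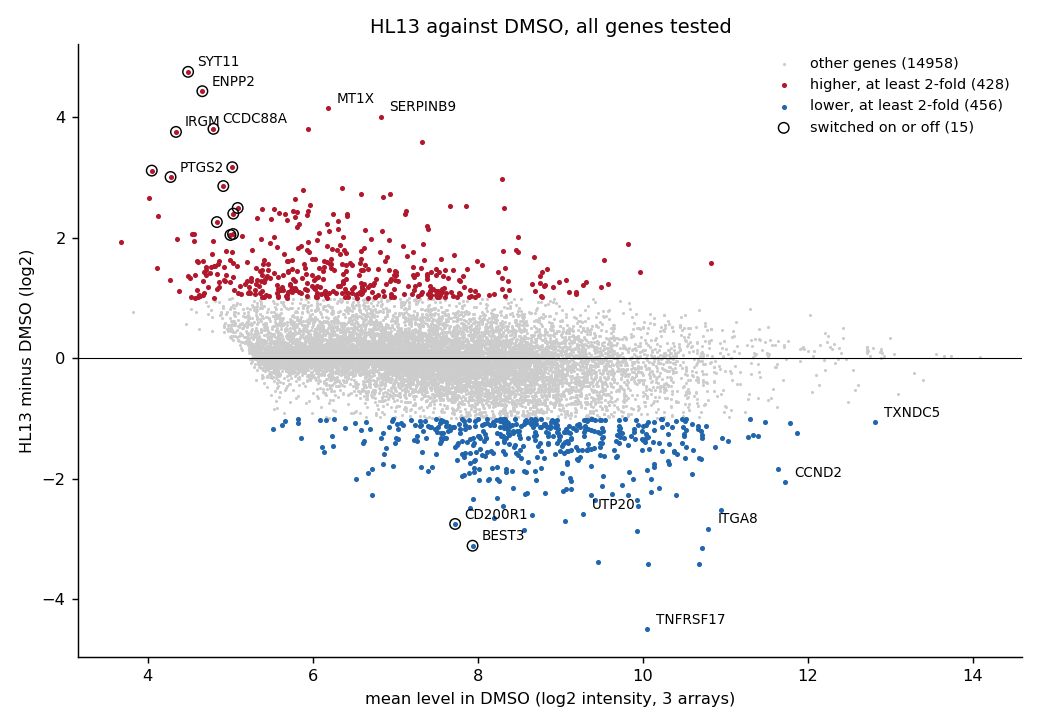
The horizontal axis is the mean log2 intensity in DMSO and the vertical axis the difference HL13 minus DMSO on the log2 scale, with 1 point per gene, red for the 428 genes at least 2-fold higher and blue for the 456 at least 2-fold lower. The largest rises lie at low DMSO levels, SYT11 and ENPP2 at the top left, and the falls spread toward bright genes such as CCND2 and TXNDC5.

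Genes that were silent in DMSO and bright with HL13 formed the most visible class. A gene was called silent in a group when none of its 3 arrays exceeded that array's median over all probe sets (5.33 to 5.38) and bright when it lay above the upper quartile on each (6.91 to 6.96). Of 22465 genes with a single symbol, 6761 were silent on every DMSO array, and 13 of these were bright on every HL13 array. These values chose the class, so its members are described without a test. All 13 were protein-coding. A looser class, silent with DMSO and above the median on every HL13 array, held 218 genes, 82 of them with at least a 2-fold difference. In the other direction 83 genes lay above the median in DMSO and were silent with HL13, 23 of them with at least a 2-fold difference.

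SYT11, a synaptotagmin of vesicle trafficking, headed the class, with levels of 9.22, 9.27 and 9.22 in HL13, 8.39 on each of the LBH589 arrays, and 4.52, 4.41 and 4.54 in DMSO, a 26.9-fold difference between HL13 and DMSO. ENPP2, which encodes the secreted lysophospholipase autotaxin, had 9.16, 9.09 and 9.01 in HL13, 7.92, 8.06 and 8.04 in LBH589, and 4.64, 4.53 and 4.81 in DMSO. CCDC88A, the actin-binding protein girdin, gave 8.60, 8.65 and 8.54 in HL13, 7.70, 7.85 and 7.94 in LBH589, and 4.91, 4.67 and 4.80 in DMSO. The bounds of the class made these 3 genes dim in DMSO and bright in HL13. Each was also bright on all LBH589 arrays, which did not enter the choice. ENPP5, a membrane-bound relative of autotaxin, also switched on, with 8.24, 8.18 and 8.15 in HL13, 7.87, 7.87 and 8.03 in LBH589, and 5.13, 4.96 and 4.98 in DMSO.

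A second set of switched genes acts in inflammation and in the sensing of pathogens. IRGM, an immunity-related GTPase linked to autophagy, had 8.07, 8.12 and 8.09 in HL13, 6.21, 6.27 and 6.45 in LBH589, and 4.16, 4.43 and 4.44 in DMSO. TLR3, the endosomal receptor for double-stranded RNA, had 7.19, 7.31 and 6.98 in HL13, 5.46, 5.48 and 5.62 in LBH589, and 4.10, 3.97 and 4.08 in DMSO. PTGS2, the inducible cyclooxygenase COX-2 that starts prostaglandin synthesis, had 7.30, 7.34 and 7.20 in HL13, 5.30, 5.43 and 5.59 in LBH589, and 4.26, 4.35 and 4.21 in DMSO. These 3 genes reached the bright range on the HL13 arrays and on none of the LBH589 arrays. NPL, an enzyme of sialic acid breakdown, PLS1, an actin-bundling plastin, and SLC2A12, a glucose transporter, were likewise bright on every HL13 array (means 7.09, 7.09 and 7.04), between the bounds with LBH589 (6.02, 6.44 and 6.18) and silent in DMSO (4.84, 5.03 and 5.00). The remaining 3 members were WDR17, a WD-repeat protein (7.77 on average in HL13, 7.35 in LBH589, 4.92 in DMSO), CAPN6, a calpain-like protein (7.58, 7.01 and 5.09 in the same order), and PLEKHH2, a pleckstrin-homology protein (7.43, 7.12 and 5.04).

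The bound of the class decides who belongs to it. SLC2A12 and TLR3 lay just inside, their dimmest HL13 arrays being 0.0027 and 0.018 above the upper quartile. Just outside were BCL6, a transcriptional repressor of germinal centre B cells, which missed by 0.012 (7.10, 7.12 and 6.97 in HL13, against 5.32, 5.34 and 5.14 in DMSO), and the linker histone gene H1-1, which missed by 0.051. With brightness set at the 90th percentile of an array, 3 genes stayed in the class and no gene was switched off.

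Promoters of 11 of the 13 genes were found in the RefSeq table (GRCh38.p14, 250 bases before to 50 after the start of the gene). Those of TLR3 and PTGS2 are shown as examples of sequences known to be read by transcription factors. Other such sequences occurred as well. A GC box (GGGCGG) stood in 7 of the 11 promoters (63.6%) and in 68.6% of all 10766 tested promoters. A CCAAT box stood in 5 (45.5%) and in 36.1% of all. In TLR3 the capitals mark GAAA, any 2 bases and GAAA on the minus strand, the core of the interferon-stimulated response element, which begins 4 bases before the start. In PTGS2 they mark a TATA box, TATAAA, 32 bases before the start.
TLR3 promoter, chr4:186068906-186069205, + strand: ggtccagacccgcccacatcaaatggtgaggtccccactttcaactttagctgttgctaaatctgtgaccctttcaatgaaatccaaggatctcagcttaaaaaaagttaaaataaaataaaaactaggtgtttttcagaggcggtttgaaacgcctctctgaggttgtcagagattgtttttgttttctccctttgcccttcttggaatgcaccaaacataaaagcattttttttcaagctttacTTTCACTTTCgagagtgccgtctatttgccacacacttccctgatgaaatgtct
PTGS2 promoter, chr1:186680374-186680673, - strand: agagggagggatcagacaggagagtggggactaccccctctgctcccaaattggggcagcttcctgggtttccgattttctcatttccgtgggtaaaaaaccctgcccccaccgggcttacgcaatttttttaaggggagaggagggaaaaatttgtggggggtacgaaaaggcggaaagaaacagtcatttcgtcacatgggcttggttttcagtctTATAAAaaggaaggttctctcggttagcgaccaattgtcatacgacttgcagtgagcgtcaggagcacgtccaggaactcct
The interferon-stimulated core stood in 2 of the 11 promoters and in 2.67% of all 10766 tested promoters, and the TATA box in 3 of the 11 and 6.27% of all. On both strands, these are matches of letters and not measured sites.

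**Figure D2:**
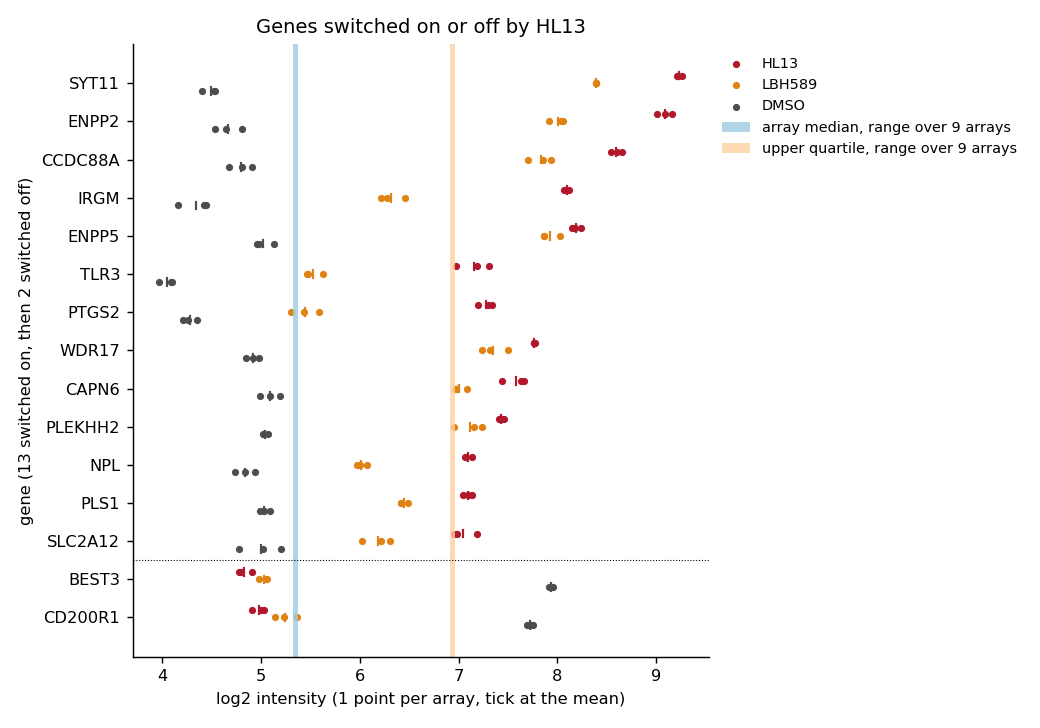
Each row is a gene, the horizontal axis is the log2 intensity, each point is an array (red HL13, orange LBH589, grey DMSO) and a tick marks the mean of 3 arrays, with shaded bands for the array medians and upper quartiles. The 13 switched-on genes have their DMSO points left of the median band and their HL13 points right of the quartile band, and BEST3 and CD200R1 show the opposite order.

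Genes that were bright in DMSO and fell silent were rarer. Only BEST3 and CD200R1 met both bounds. BEST3, a bestrophin chloride channel, had 4.78, 4.80 and 4.90 in HL13, 5.06, 4.98 and 5.05 in LBH589, and 7.94, 7.95 and 7.91 in DMSO. CD200R1, an inhibitory receptor for the ligand CD200, had 5.03, 4.99 and 4.91 in HL13, 5.14, 5.23 and 5.37 in LBH589, and 7.73, 7.76 and 7.69 in DMSO. KCNQ5-IT1, a transcript within a potassium channel gene, and CD86, a costimulatory ligand, lay just outside, 0.068 and 0.078 from the bound. Several larger falls ended a little above it. GAS2, which links actin to microtubules, had 5.62, 5.51 and 5.51 in HL13, against 8.22, 8.21 and 8.16 in DMSO. AGMAT, annotated as an agmatinase, had 5.56, 5.64 and 5.61 in HL13, against 7.87, 7.87 and 8.09 in DMSO. UGT2B15, an enzyme that conjugates steroids and drugs with glucuronic acid, had 5.53, 5.41 and 5.33 in HL13, against 7.91, 7.86 and 7.93 in DMSO. In each of these 3 genes all HL13 arrays lay below every DMSO array by more than 2 log2 units.

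Beyond the switched genes, the 30 largest rises among protein-coding genes included the following. PEG10, an imprinted gene derived from a retrotransposon, had 11.31, 11.27 and 11.23 in HL13, against 8.31, 8.32 and 8.27 in DMSO, a difference of 2.97 ± 0.031 (adjusted p 2.5e-12). STOM, the membrane scaffold stomatin (2.82 ± 0.042), VCL, the focal adhesion protein vinculin (2.73 ± 0.031), and TSPAN13, a tetraspanin (2.44 ± 0.042), rose together with them. ERRFI1, a feedback inhibitor of the EGF receptor, rose by 2.64 ± 0.064 and RGS2, which shortens G protein signalling, by 2.52 ± 0.051. CCL5, a chemokine that attracts T cells and monocytes, had 10.34, 10.43 and 10.34 in HL13, against 7.89, 7.89 and 7.78 in DMSO. LIPH, a lipase that makes lysophosphatidic acid as autotaxin does, had 6.63, 6.62 and 6.77 in HL13, against 3.93, 3.99 and 4.13 in DMSO. DHRS2, a mitochondrial reductase (2.79 ± 0.070), APAF1, the scaffold of the apoptosome (2.45 ± 0.062), and KDM5B, which removes methyl groups from lysine 4 of histone H3 (2.45 ± 0.033), were also among the 30 largest rises. SERPINB9, an inhibitor of granzyme B, had 10.90, 10.82 and 10.76 in HL13, against 6.78, 7.04 and 6.64 in DMSO, and SAT1, which acetylates polyamines, had 9.77, 9.75 and 9.69 in HL13, against 5.97, 5.93 and 5.92 in DMSO. The 30 were drawn only from genes whose HL13 and DMSO arrays did not overlap, so their separation follows from the choice. Such separation was common, with 10542 of the 15842 genes tested showing no overlap.

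The 30 largest falls among protein-coding genes had varied roles. ZBTB38, a zinc finger protein that binds methylated DNA, had 7.28, 7.33 and 7.19 in HL13, against 10.72, 10.67 and 10.65 in DMSO, and CCR1, a chemokine receptor, had 6.12, 6.11 and 5.99 in HL13, against 9.44, 9.52 and 9.43 in DMSO. KCNA3, the potassium channel Kv1.3 of lymphocytes, had 7.14, 7.05 and 7.09 in HL13, against 9.50, 9.32 and 9.28 in DMSO. IL6R, the receptor of the myeloma growth factor interleukin-6, had 7.90, 7.91 and 7.84 in HL13, against 10.08, 10.12 and 10.08 in DMSO, a difference of -2.21 ± 0.035 (adjusted p 2.1e-11). FCMR, the Fc receptor for IgM (-2.26 ± 0.055), LCP2, the adaptor SLP-76 (-2.24 ± 0.053), and LPXN, the adhesion adaptor leupaxin (-2.46 ± 0.040), fell as well. EVI2A and EVI2B, membrane proteins whose genes lie within an intron of NF1, fell (-2.44 and -2.02), while NF1 itself was higher (8.35, 8.38 and 8.32 in HL13, against 7.31, 7.20 and 7.16 in DMSO). ST3GAL6, a sialyltransferase that builds selectin ligands (-2.32 ± 0.049), TRIP13, an ATPase of the mitotic checkpoint and of meiosis (-2.25 ± 0.033), and MORC1, a germline gene (-2.25 ± 0.054), belonged to the same 30 largest falls.

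The direction of the response changed with the level of a gene. When the genes tested were ranked by their DMSO level and divided into 10 classes of equal size, the dimmest class held 38.6% called higher and 4.73% called lower, and the brightest class 24.7% higher and 55.1% lower. At least 2-fold falls made up 11% of the brightest class and 0.189% of the dimmest. The DMSO level enters the difference, and 253 genes of the dimmest class were silent in DMSO and so passed the filter only because they were brighter with a compound; of these 242 were called higher. The other 1332 genes of that class gave 370 higher and 74 lower. Ranked instead by the mean of the HL13 and DMSO levels, the share called lower was 9.02% in the dimmest class and 43.6% in the brightest, while the share called higher was 26.6% and 33.9%. The excess of falls among bright genes thus held under this ranking, and the excess of rises in the dimmest class over the brightest did not. Among the 100 brightest genes in DMSO, 43 were called higher and none of them by 2-fold, and 32 were called lower, 8 of them by at least 2-fold. These 8 were TXNDC5, MOB3A, TXNDC11, CCND2, UBE2J1, MKI67, PRKD3 and CHMP4B. CCND2, the cyclin D2 that drives entry into S phase, had 9.66, 9.68 and 9.66 in HL13, against 11.78, 11.73 and 11.65 in DMSO. UBE2J1, a ubiquitin-conjugating enzyme of the endoplasmic reticulum, had 9.84, 9.83 and 9.75 in HL13, against 11.64, 11.65 and 11.64 in DMSO. TXNDC5, a disulfide isomerase of the same compartment, had 11.78, 11.76 and 11.73 in HL13, against 12.81, 12.82 and 12.81 in DMSO.

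Gene length was a further axis. Of 1591 tested protein-coding genes of up to 5 kb in the reference, 20.1% were called higher, and of 810 genes longer than 200 kb, 46%. The shares called lower were 21.8% and 28.4%. Median standard errors were 0.048 in the shortest class and 0.039 in the longest, so the shortest genes were measured less precisely, and the median DMSO levels were 6.84 and 6.83. Within genes of a DMSO level of 7 to 9, the share called higher was 20.9% for the shortest class and 39.4% for the longest, with standard errors of 0.046 and 0.039. In the same window 37.9% and 40.3% were called lower, with median differences of -0.041 and -0.011. There the longest genes were thus called lower about as often as higher. The part of precision in the trend with length was not tested.

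**Figure D3:**
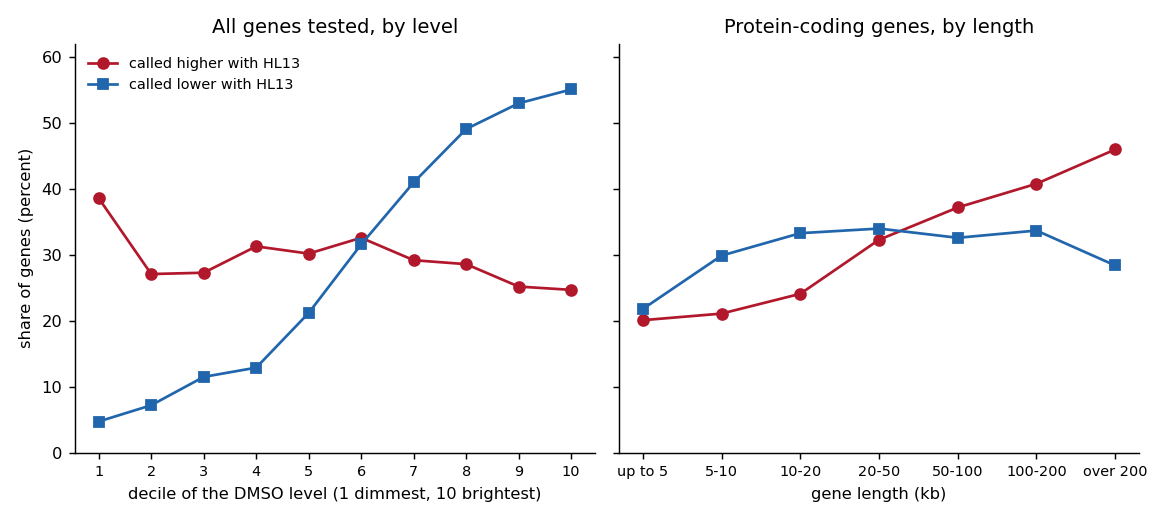
The left panel gives, for 10 classes of genes ranked by DMSO level, and the right panel, for 7 classes of protein-coding genes by length in kb, the percent of genes called higher (red circles) and lower (blue squares) with HL13. The blue line climbs to 55.1% in the brightest class of the left panel, and the red line to 46% in the longest class of the right panel.

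Gene families, defined by patterns in the gene symbols, differed in how uniformly they moved. The groups described here were picked after their values were seen, and all of their counts stand against the 29.5% called higher and 28.7% called lower over all genes. Members that passed the filter only through a bright treated group had to be higher, and dim members that could have diluted a lean were left out, so the number measured is given beside the number tested. The ENPP family of ecto-nucleotide pyrophosphatases and phosphodiesterases had 6 measured and 4 tested members, and all 4 rose: besides ENPP2 and ENPP5, ENPP1, which makes pyrophosphate outside the cell, had 8.92, 8.90 and 8.82 in HL13, against 6.94, 6.90 and 6.94 in DMSO, and ENPP4 rose by 0.87 ± 0.070. ENPP2 and ENPP5 were silent in DMSO and passed the filter only through treated arrays, so their rise follows from it. The family median was 2.56, and 1.41 over all 6 with no filter. Of 11 measured metallothionein genes, small proteins that bind zinc and copper through cysteines, 10 were tested and 10 rose, with a median difference of 1.34. MT1X had 10.30, 10.32 and 10.36 in HL13, against 6.18, 6.26 and 6.12 in DMSO. MT2A had 10.89, 10.85 and 10.99 in HL13, against 7.28, 7.33 and 7.37 in DMSO. MT1M was at the low end, with 6.03, 6.49 and 6.15 in HL13, against 5.45, 5.64 and 5.70 in DMSO. These genes are close copies of each other, so probes can be shared and the values of single members are uncertain.

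The promoters of MT1X, MT2A and MT1H are shown with the metal response element in capitals, the letters TGCACNC or TGCGCNC on either strand, which the zinc sensor MTF1 is known to bind.
MT1X promoter, chr16:56682220-56682519, + strand: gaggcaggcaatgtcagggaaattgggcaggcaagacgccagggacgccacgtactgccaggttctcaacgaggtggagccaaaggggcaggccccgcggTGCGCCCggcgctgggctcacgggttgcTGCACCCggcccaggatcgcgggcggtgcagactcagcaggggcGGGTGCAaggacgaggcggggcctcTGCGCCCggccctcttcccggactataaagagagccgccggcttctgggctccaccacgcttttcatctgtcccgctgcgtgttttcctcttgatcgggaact
MT2A promoter, chr16:56608334-56608633, + strand: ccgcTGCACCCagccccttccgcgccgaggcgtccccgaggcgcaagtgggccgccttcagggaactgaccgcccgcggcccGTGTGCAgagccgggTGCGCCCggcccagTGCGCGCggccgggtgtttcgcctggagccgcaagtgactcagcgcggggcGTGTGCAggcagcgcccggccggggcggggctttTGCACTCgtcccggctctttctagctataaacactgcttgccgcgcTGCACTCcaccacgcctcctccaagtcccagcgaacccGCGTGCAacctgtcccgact
MT1H promoter, chr16:56669564-56669863, + strand: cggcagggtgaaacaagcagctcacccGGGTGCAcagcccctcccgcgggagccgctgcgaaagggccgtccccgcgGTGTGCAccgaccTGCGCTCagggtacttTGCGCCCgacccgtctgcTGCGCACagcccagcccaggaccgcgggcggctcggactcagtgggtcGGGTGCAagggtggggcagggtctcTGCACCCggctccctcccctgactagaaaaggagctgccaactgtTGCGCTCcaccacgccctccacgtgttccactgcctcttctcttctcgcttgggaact
The element occurred at 4 places in the MT1X promoter and at 8 in each of the MT2A and MT1H promoters. Of the 10766 tested promoters 38% held at least 1 copy, 0.827% at least 4, and 3 promoters (0.0279%) at least 8. The third of these was that of CARS2, which encodes a mitochondrial tRNA synthetase and changed by -0.31. Among the other genes of the 10 promoters with 6 or more copies, CGREF1 (0.72) and RTN3 (0.54) rose. PPP6R1 (-0.68) and TCF25 (-0.59) fell. ASPHD2 (0.021), LIAT1 (-0.013) and NXNL2 (0.0011) did not pass the test. At least 1 copy stood in 41.5% of the 330 promoters of genes at least 2-fold higher and in 34.5% of the 348 of genes at least 2-fold lower. A part of the element in these differences was not tested.

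Further families with more rises than falls were the following. Of 21 measured ephrins and ephrin receptors, which signal between touching cells, 19 were tested, 12 rose and 0 fell. EPHA3 had 6.69, 6.65 and 6.45 in HL13, against 4.55, 4.49 and 4.56 in DMSO, and EFNB2, EFNA4 and EPHA7 rose by 1.33, 1.28 and 1.15. Of 42 measured protocadherins only 7 were bright enough to test, and 6 of these rose, PCDH10 most (6.35, 6.35 and 6.30 in HL13, against 4.16, 4.52 and 4.39 in DMSO). With no filter on dim probe sets the count was 17 higher and 1 lower, against 22.9% and 21.5% of all 22465 genes in that fit. Of 26 measured intraflagellar transport and Bardet-Biedl proteins, which build and serve the primary cilium, 25 were tested, 18 rose and 2 fell. BBS7 had 8.82, 8.84 and 8.72 in HL13, against 7.45, 7.36 and 7.36 in DMSO, and IFT80 and BBS9 rose by 1.33 and 1.24. The 2 falls, IFT74 and IFT122, were of -0.16 and -0.13. Of 25 measured HLA genes, which present peptides to T cells, 24 were tested, 18 rose and 0 fell, led by the class II genes HLA-DQA1 (5.81, 5.89 and 5.84 in HL13, against 4.53, 4.54 and 4.47 in DMSO) and HLA-DMB. CIITA, the activator of class II genes, differed by 0.12 ± 0.038.

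RAB GTPases and zinc finger genes also had more rises than falls. Of 60 measured RAB GTPases of vesicle transport, 52 were tested, 26 rose and 9 fell, with RAB31 (2.20), RAB39B (1.48) and RAB27B (1.29) at the top and RAB36 (-0.92) at the bottom. Of 502 measured genes with ZNF symbols, most of them DNA-binding zinc finger proteins, 418 were tested, 182 rose and 85 fell, a lean of small differences with a median of 0.077. ZNF774 (1.97) and ZNF521 (-1.84) were the extremes.

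Some families held members that moved in opposite directions, and the members named here were picked after their values were seen. Among beta-tubulins, TUBB2A, TUBB2B and TUBB4A, which are best known from neurons, rose by 1.52 ± 0.042, 2.22 ± 0.063 and 1.39 ± 0.067. TUBB, the form of dividing cells, had 11.77, 11.76 and 11.74 in HL13, against 12.48, 12.50 and 12.48 in DMSO. Of 21 measured tubulins 20 were tested, 11 rose and 8 fell, and the 8 became 5 with no filter and 5 with the replicate number in the model. Among the heavy chains of kinesin-1, the neuronal KIF5C had 7.68, 7.66 and 7.62 in HL13, against 5.27, 5.40 and 5.31 in DMSO, and KIF5A rose by 1.63 ± 0.034. The broadly expressed KIF5B had 9.55, 9.52 and 9.48 in HL13, against 9.93, 9.90 and 9.85 in DMSO. Of 42 measured kinesins 41 were tested, 13 rose and 15 fell.

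**Figure D4:**
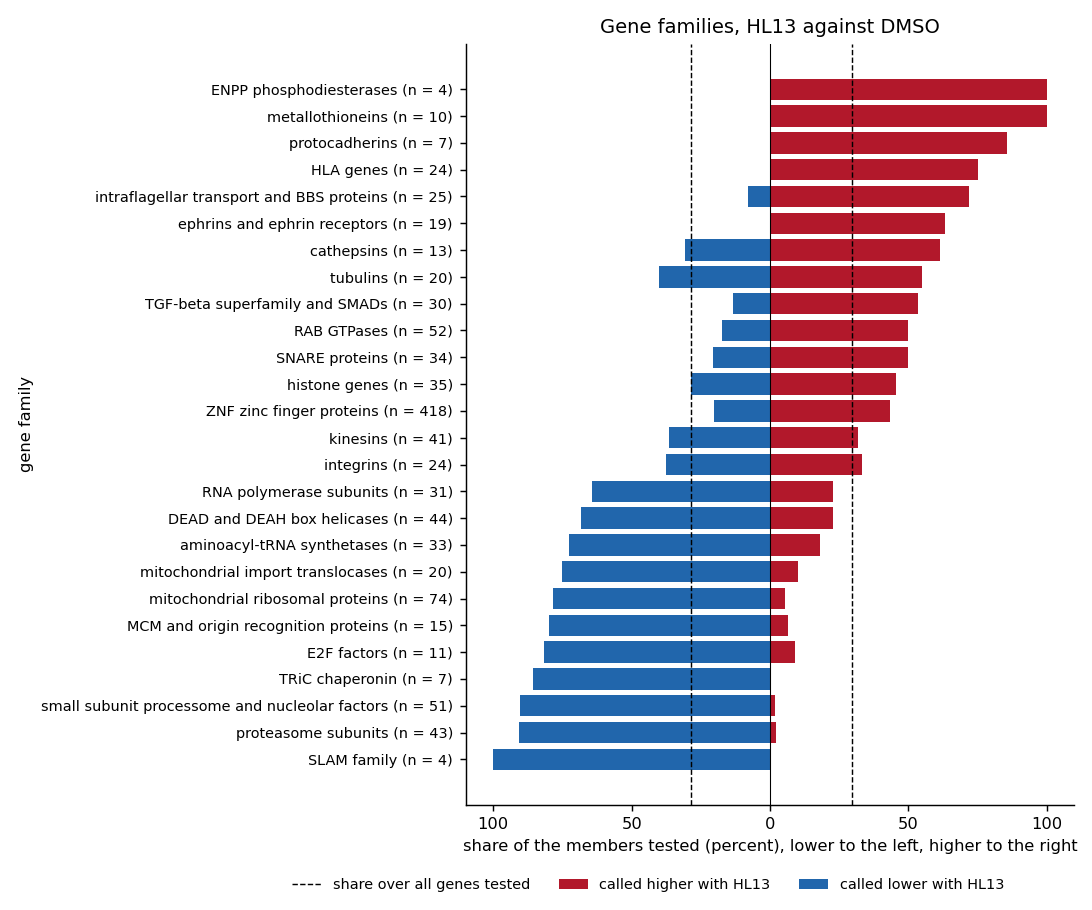
Each bar gives the percent of tested members of a family called higher (red, to the right) or lower (blue, to the left) with HL13, with the number tested in brackets and dashed lines at the shares over all genes, 29.5% and 28.7%. Metallothioneins and ENPP genes reach the right edge, and nucleolar factors, proteasome genes (subunits, regulators and assembly factors) and SLAM receptors extend to the left.

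Families with more falls than rises were the following. Of 52 measured factors of the small subunit processome and the nucleolus, where ribosomes are assembled, 51 were tested, 46 fell and 1 rose. UTP20, a scaffold of this complex, had 6.73, 6.69 and 6.63 in HL13, against 9.32, 9.28 and 9.22 in DMSO. WDR43, another component, had 7.48, 7.61 and 7.58 in HL13, against 9.57, 9.46 and 9.51 in DMSO. UTP15 (-2.002) and NOP16 (-1.69) fell as well. Of 45 measured genes of proteasome subunits, regulators and assembly factors, 43 were tested and 39 fell, PSMB6 (-1.14) and PSMB5 (-1.08) most. PSME4, a nuclear proteasome activator, rose by 0.31. Several other families of protein breakdown had no such majority of falls. F-box proteins gave 19 rises and 10 falls (58 measured, 50 tested), and RING finger proteins 24 and 14 (73 and 61). Ubiquitin-specific proteases gave 20 and 18 (50 and 46), E2 ubiquitin-conjugating enzymes 8 and 10 (26 and 25), and cathepsins 8 and 4 (15 and 13). Caspases, also proteases, had 6 falls and 1 rise among 7 tested of 10 measured. Of 21 measured mitochondrial import translocases 20 were tested and 15 fell, TIMM13 (-1.50 ± 0.069) and TOMM40, the import pore (-1.31), most. Of 74 mitochondrial ribosomal proteins, all tested, 58 fell and 4 rose, with a median of -0.35, and the 52 tested ribosomal proteins of the cytosol gave 12 rises and 17 falls with a median of -0.0091, which was 0.045 with quantile normalization.

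The replication family of MCM helicase and origin recognition genes had 12 falls and 1 rise among 15, all tested, the rise being ORC4 (0.97) and the largest falls MCM5 and MCM7 (-1.33 and -1.22). Of 11 E2F and DP transcription factors, which drive the genes of S phase, 9 fell, E2F2 (-2.20) most. Of 8 measured TRiC chaperonin subunits, which fold actin and tubulin, 7 were tested, 6 fell and CCT8 did not pass. Of 51 measured RNA helicases of the DEAD and DEAH box type, 44 were tested, 30 fell and 10 rose, with DDX21 of the nucleolus at 8.89, 8.85 and 8.76 in HL13, against 10.44, 10.44 and 10.38 in DMSO. Of 9 measured SLAM receptors of lymphocytes only 4 were bright enough to test, and these 4 fell, SLAMF7 (8.45, 8.48 and 8.37 in HL13, against 10.99, 10.96 and 10.91 in DMSO) and CD48 (-1.54) more than LY9 (-0.37) and SLAMF6 (-0.30). Their median was -0.95, and over all 9 with no filter it was -0.11, with 5 called lower. Of 30 measured integrins 24 were tested, 8 rose and 9 fell. ITGA8 had 7.95, 8.03 and 7.91 in HL13, against 10.80, 10.79 and 10.79 in DMSO, and ITGA4 (-1.52) and ITGAL (-1.41) of leukocytes fell, while the collagen receptor subunit ITGA2 and the shared beta chain ITGB1 rose by 1.53 and 0.90.

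The letters CACGTG, the E-box that MYC with MAX and also USF factors are known to bind, were among 10 motifs searched on both strands. They stood in 7.27% of the 330 promoters of genes at least 2-fold higher, in 17.2% of the 348 of genes at least 2-fold lower, and in 9.90% of all 10766. Within genes of a DMSO level of 7 to 9 these shares were 5.81% of 86, 17.7% of 186 and 10.9% of 5047, and above a level of 9 they were 0% of 8 promoters, 16% of 144 and 12.7% of 1235. Below a level of 7 they were 8.05% of 236, 22.2% of only 18 and 7.96% of 4484. The promoters of UTP20 and WDR43, shown with the E-box in capitals, are examples among the 60 fallen genes that held it.
UTP20 promoter, chr12:101279855-101280154, + strand: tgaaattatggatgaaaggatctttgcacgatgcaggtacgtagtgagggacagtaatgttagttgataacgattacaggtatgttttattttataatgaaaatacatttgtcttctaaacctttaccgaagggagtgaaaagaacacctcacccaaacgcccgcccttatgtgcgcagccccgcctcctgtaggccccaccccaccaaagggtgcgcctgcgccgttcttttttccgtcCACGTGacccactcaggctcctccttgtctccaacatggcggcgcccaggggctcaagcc
WDR43 promoter, chr2:28894417-28894716, + strand: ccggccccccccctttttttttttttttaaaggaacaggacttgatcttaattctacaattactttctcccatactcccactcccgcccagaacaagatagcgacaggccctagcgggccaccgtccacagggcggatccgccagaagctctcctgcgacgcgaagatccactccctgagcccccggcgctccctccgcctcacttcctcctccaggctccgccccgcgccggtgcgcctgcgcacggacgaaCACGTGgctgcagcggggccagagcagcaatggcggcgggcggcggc
The TATA box stood in 12.1% of the promoters of genes at least 2-fold higher, in 8.91% of those at least 2-fold lower and in 6.27% of all. The GC box, GGGCGG, stood in 71.5%, 61.5% and 68.6% of the same sets. Below a DMSO level of 7 the shares with a TATA box were 11.4% of 236, 16.7% of only 18 and 8.07% of 4484. At a level of 7 to 9 they were 14.0% of 86, 8.06% of 186 and 4.46% of 5047. Above a level of 9 they were 12.5% of 8, 9.03% of 144 and 7.13% of 1235. These shares are descriptions without a test.

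Gene types differed in how many members were called. Of 13199 protein-coding genes 30.5% were called higher and 31.3% lower. Of 754 long non-coding RNAs, transcripts that make no protein, the shares were 23.5% and 12.6%. This lean depended on scaling: 177 of these RNAs were higher and 95 lower, but with quantile normalization 147 and 131. Their median standard error was 0.053, against 0.041 for protein-coding genes, and among genes with a DMSO level of 6 to 7 the shares were 22.2% and 14.1%, against 32.1% and 13.5% for protein-coding genes. IFNG-AS1, transcribed beside the interferon-gamma gene, had 7.76, 7.45 and 7.49 in HL13, against 10.73, 10.72 and 10.71 in DMSO, the largest fall of this type. LINC00582 (-1.95), KCNQ5-IT1 (-1.78) and TRG-AS1 (-1.61) also fell. LINC01554 had 7.30, 7.51 and 7.42 in HL13, against 5.56, 5.56 and 5.58 in DMSO, the largest rise, and LINC00052 (1.61) and CBR3-AS1 (1.43) followed. Whether a probe set reads an antisense gene or its partner cannot be told from these files.

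Pseudogenes are inactive copies of genes, and several of those with large differences carry the name of a gene that differed in the same direction. How many pseudogenes do so was not counted. MT1CP and MT1JP, copies of metallothionein genes, rose by 2.36 and 2.18. TMSB4XP8 and TMSB4XP4 rose by 1.58 and 1.78 beside thymosin beta 4, TMSB4X, which binds actin monomers (11.45, 11.32 and 11.43 in HL13, against 9.86, 10.14 and 9.88 in DMSO). HMGN2P25 (-1.28), HMGN2P15 (-1.30) and HMGN2P18 (-1.28) fell beside HMGN2, a nucleosome-binding protein (9.50, 9.48 and 9.47 in HL13, against 10.68, 10.66 and 10.66 in DMSO). Signal of such copies and of their parents cannot be told apart.

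Small RNA genes differed by type. All 15 called small nuclear RNAs of 22 tested were higher (68.2%) and 0 were lower. RNU12 of the minor spliceosome had 7.93, 7.74 and 7.85 in HL13, against 7.07, 6.98 and 6.89 in DMSO, and the 7 others did not pass. Of 146 small nucleolar RNAs, which guide modification of ribosomal RNA, 65 were higher (44.5%) and 22 lower (15.1%). SNORD12C had 8.92, 8.79 and 8.73 in HL13, against 6.16, 6.51 and 6.58 in DMSO. SNORD12 and SNORD12B rose by 1.29 ± 0.051 and 1.18 ± 0.062. All 3 lie in introns of ZFAS1 in the reference, a host gene with no tested value here. SNORD53 fell by 0.78 with its host WDR43, and SNORD19 had 4.29, 4.13 and 4.60 in HL13, against 5.55, 5.63 and 5.36 in DMSO. Many of these RNAs have close copies, so single members are uncertain, and a fragment of a host transcript cannot be told apart from the small RNA.

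**Figure D5:**
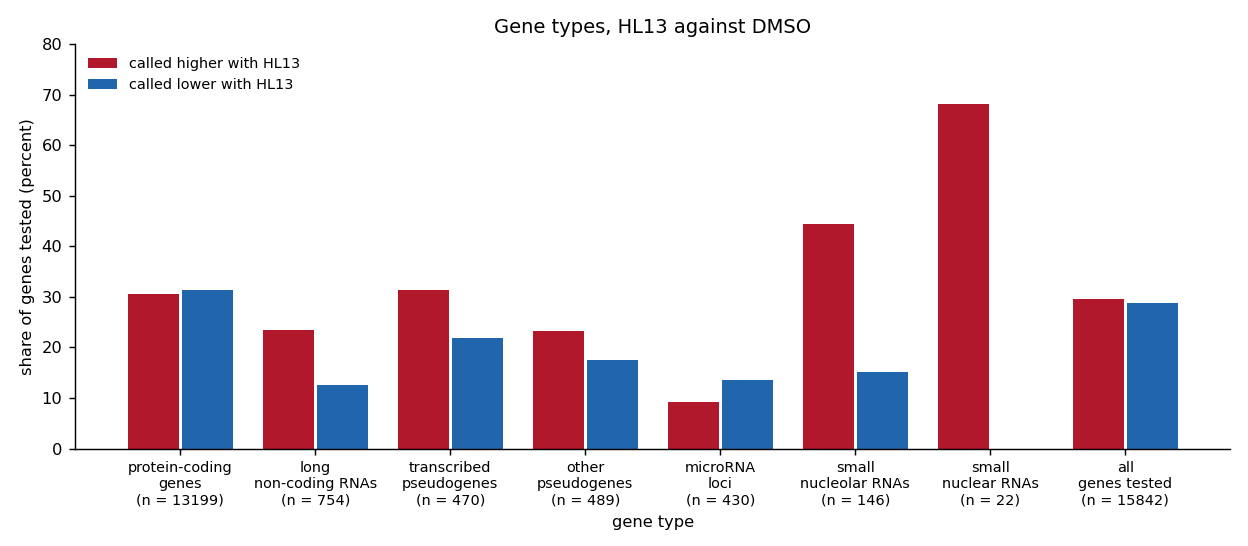
The vertical axis is the percent of tested genes of each type called higher (red) or lower (blue) with HL13, with the number tested under each type and all genes at the right. Small nuclear RNAs show 68.2% higher and 0% lower, and microRNA loci the lowest share higher, 9.30%.

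Of 430 microRNA loci, 40 were higher (9.30%) and 58 lower (13.5%), and with no filter on dim probe sets 126 of 1040 were lower. Their median standard error, 0.075, was the largest of the types. Only 5 differed by at least 2-fold, and 4 of these have a mature sequence in RefSeq. Because a seed (bases 2 to 8, in capitals) sets the targets of a microRNA, both mature arms of the 4 loci are shown.
hsa-miR-15b-5p: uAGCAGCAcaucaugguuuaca
hsa-miR-15b-3p: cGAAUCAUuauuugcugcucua
hsa-miR-142-5p: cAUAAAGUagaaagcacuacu
hsa-miR-142-3p: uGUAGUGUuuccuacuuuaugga
hsa-miR-545-5p: uCAGUAAAuguuuauuagauga
hsa-miR-545-3p: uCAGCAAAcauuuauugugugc
hsa-miR-181b-5p: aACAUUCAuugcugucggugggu
hsa-miR-181b-3p: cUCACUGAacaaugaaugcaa
None of the 8 arms shares its seed with another. MIR15B, a family member of microRNAs that restrain BCL2 and cyclins, had 5.21, 5.00 and 5.08 in HL13, against 6.999, 6.771 and 6.784 in DMSO. It lies within SMC4, a condensin subunit, which fell by 0.89 ± 0.061. MIR142, a microRNA of blood cells, had 6.85, 6.76 and 6.52 in HL13, against 8.09, 7.96 and 8.04 in DMSO. MIR545 had 4.59, 4.54 and 4.73 in HL13, against 5.50, 5.65 and 5.84 in DMSO, and its host FTX changed by -0.72. MIR181B1, known from lymphocyte development, rose, with 6.34, 6.43 and 6.22 in HL13, against 5.25, 5.24 and 5.18 in DMSO. The fifth locus, MIR3143, rose by 1.76. Outside these 5, and picked after its value was seen, MIR4263 differed by 0.57 and its host BABAM2 by -0.29. The probes read the locus in total RNA, so primary transcript and mature microRNA cannot be told apart.

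Neighbouring genes were compared next. Of 9817 adjacent pairs of protein-coding genes with both members tested, 48 had both members changed by at least 2-fold. In 16 of these pairs both were higher, in 11 both were lower, and in 21 the directions were opposite. Singly, 400 of the 13199 protein-coding genes tested were at least 2-fold higher and 415 at least 2-fold lower. Whether such pairs were more frequent than among genes paired without regard to position was not tested. The metallothionein cluster gave 4 of the rising pairs, and SERPINB1 with SERPINB9, TUBB2A with TUBB2B and HLA-DMB with HLA-DMA were others of related genes. UGT2B17 and UGT2B15 fell together. The subunits of soluble guanylate cyclase, the receptor of nitric oxide, moved apart. GUCY1A1 had 7.06, 7.09 and 7.12 in HL13, against 9.16, 9.13 and 9.11 in DMSO, and its neighbour GUCY1B1 had 8.86, 8.86 and 8.81 in HL13, against 7.22, 7.08 and 7.14 in DMSO. CCNA2 (-1.12), the cyclin of S phase, lies beside BBS7 (1.40), and E2F2 (-2.20) beside ID3 (1.06), an inhibitor of helix-loop-helix factors. Across the chromosomes the share of protein-coding genes called higher ran from 20.8% on chromosome 22 to 40.2% on chromosome 18, and the share called lower from 22.4% on chromosome 19 to 36.2% on chromosome 12.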

How the data were processed

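RNA of MM.1S cells was hybridised to Affymetrix Human Transcriptome arrays. The table deposited by the authors holds log2 intensities, 1 for each transcript cluster on each array, which entered the fit unchanged. The sources used here do not state the summarisation and normalization of the probes. Values identical on the 3 arrays of a group occurred for 2.38% of tested genes in HL13 and 1.61% in DMSO. Of 70523 clusters, 23781 carried 1 gene symbol (22465 genes). A cluster entered the tests if above its array's median on at least 3 of the 9 arrays, and the brightest cluster per gene was kept, which left 15842 genes. All 9 arrays were fitted with limma 3.58.1 in R 4.3.3 (1 mean per group, two-sided), and 0 value columns were left out. The precision is limited by the number of arrays (median standard error 0.043, median 95% interval 0.095 to either side). On simulated data for this comparison of 15842 genes, the fit called 39 of 50 genes at a log2 fold of 0.25, 48 of 50 at 0.5, all 50 at 1 and at 2, and 19 unchanged genes. Gene types, lengths, neighbours and sequences came from RefSeq tables of GRCh38.p14, which held 15663 of the genes tested and promoters of 10766 of 13199 protein-coding genes. The study's methods describe RNA sequencing, whereas these are arrays. Named genes are the 30 largest protein-coding rises and falls without overlap, the switched genes (up to 20), the 5 largest of each other gene type, up to 5 per direction of each family described, and 2-fold changed genes among the 20 brightest in DMSO; the other bright genes, neighbours, host genes, parents of pseudogenes, promoters with many copies of a motif, and NF1, CIITA, BCL6, H1-1 and CCT8 were named after their values were seen. The members and lists were chosen with earlier results of these data known.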

Additional observations from a re-analysis of the deposited data

Results flagged for a closer look

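Among 16103 transcript clusters without a gene symbol that passed the same filter, 396 were at least 2-fold higher with HL13 (2.46%) and 264 at least 2-fold lower (1.64%) at an adjusted p under 0.05 in limma. They are outside the gene comparison, and their signals, which differ from the DMSO arrays, were not assigned to genes here. The largest rise was 4.64, to a mean of 7.83 in HL13, against 3.19 in DMSO, and the largest fall -3.68, to 3.85 in HL13, against 7.53 in DMSO.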

How the results depend on the processing

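The number of genes called ranged from 7025 with the filter at the upper quartile to 9981 with no filter, and from 8592 to 8751 when single arrays were left out. The 2-fold counts stayed within 315 to 440 higher and 418 to 493 lower over all alternatives. Centring each array on its median gave 4193 higher and 4981 lower, and quantile normalization 4760 and 4842. The median of all genes moved from 0.0076 to -0.022 and -0.019. The class of switched genes depended on its bounds: with brightness at the 90th percentile 3 genes were switched on and 0 off, and with silence set by olfactory receptor genes 19 and 2. Leaving out single arrays gave 13 to 15 switched on and 2 switched off. With no filter, 126 of 1040 microRNA loci and 21.5% of all 22465 genes were lower. The main fit had 58 of 430 such loci lower. Of 983 genes checked singly, none changed sign, and between 6 and 32 lost their call under each of the alternatives that lost any. Of 23 families with a median of at least 0.2 either way, none changed sign by scaling, and 2 did so with no filter, clade B serpins and TNF ligands. The replicate numbers do not pair the arrays: residuals of arrays with the same number correlated at 0.060, -0.067 and 0.061. With the replicate block, 8840 genes were called, 4458 higher and 4382 lower. Without background values the lower limit of detection is not known, and folds of dim genes may be understated.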
